A study of Danio rerio with 27 samples.

Results

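The insulin-like growth factor genes igf1, igf2a and igf2b and the binding protein genes igfbp1a, igfbp1b, igfbp2a, igfbp2b, igfbp3, igfbp5a and igfbp5b were followed through 27 libraries of pooled whole zebrafish larvae. These 10 genes, of 39988 entries in the count table, were found by symbol. The family was selected on measured values: it was chosen by its counts in these same 6 groups, with earlier results of these data known. Levels and changes of the 10 genes are therefore given as a description, with a mean, SD or SE but with no p-value. Tests are given for other genes of the pathway.

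Insulin-like growth factors are small secreted hormones that promote growth by binding a receptor tyrosine kinase, which signals through insulin receptor substrates, PI3K, AKT and mTOR and keeps FoxO transcription factors out of the nucleus. Binding proteins hold the hormones in plasma and tissues, release them after cleavage by proteases such as the pappalysins, and can either limit or assist their action. Igfbp1 is a product of hepatocytes, and in mammals its gene is repressed by insulin and raised by fasting, glucocorticoids, amino acid shortage and hypoxia. In zebrafish embryos Igfbp1 is known to slow growth and development under hypoxia. The liver under growth hormone control is a main source of circulating Igf1.

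Larvae were collected at 21 days post fertilisation. Larvae of the wild-type (WT) background were compared with larvae of the PY background, whose genotype is P53KO;lf:YAP: p53 is knocked out and YAP, a growth-promoting coactivator, is constitutively overexpressed in the liver, and these larvae are described as tumour-burdened and cachectic. All 6 groups, controls included, were injected in the yolk with Cas9 and guides against SLC45a2, a gene of pigmentation used as a marker. WT SLC45a2-KO and PY SLC45a2-KO received those guides alone. WT TGR5-KO and PY TGR5-KO also received guides against TGR5, a cell surface receptor for bile acids (gene gpbar1), and WT CYP7a1-KO and PY CYP7a1-KO also received guides against CYP7a1, the rate-limiting enzyme of classical bile acid synthesis. Each WT group held 4 libraries and each PY group 5, each from a pool of larvae of a size that the labels do not state. The title of the series names YAP, bile acid balance and cachexia as its subject. PY differs from WT in both p53 and YAP, so the parts of the 2 changes cannot be told apart.

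Libraries held 3377345 to 6238251 counts (median 4533099), and the upper limit of a gene with 0 counts, set at 3 counts, was 0.481 to 0.888 counts per 1000000 (CPM, before scaling). Such limits cover counting error only. Values below are CPM scaled by TMM factors (0.910 to 1.07), given per library in the order of the replicate numbers, and log2 changes ± SE from edgeR, in which 1 spread per gene is shared by all 6 groups. Within groups, libraries correlated at 0.912 to 0.951 in PY and 0.952 to 0.965 in WT (Pearson's r of log2 CPM over genes). By this r, PY CYP7a1-KO libraries 1 and 2 stood apart from libraries 3 to 5 (0.916 to 0.926) and also from each other (0.912). By chi-square of the counts per degree of freedom they differed less from each other (8.48) than from libraries 3 to 5 (13.7 to 21.8). These 2 held the fewest genes with a count of all libraries, 18766 and 18150. The part of depth in this was not tested. The targeted transcripts were too low or moved the wrong way to check the labels. The receptor gene gpbar1 summed to 13 counts in each of PY TGR5-KO and PY SLC45a2-KO. The marker slc45a2 had 1 count in WT SLC45a2-KO and 11 in PY SLC45a2-KO. The enzyme gene cyp7a1 was at 44.7 ± 9.29 CPM in WT CYP7a1-KO against 2.40 ± 1.68 in WT SLC45a2-KO. It was also higher in WT TGR5-KO, at 30.01 ± 7.60 CPM, so the higher level was not particular to the CYP7a1 guides. In PY cyp7a1 stood at 8.57 ± 3.10, 12.9 ± 4.24 and 12.3 ± 3.998 CPM with SLC45a2-KO, TGR5-KO and CYP7a1-KO. Since tags are read from transcript ends, an edit elsewhere in the gene would not show in them. The gene yap1 did not pass the filter on low counts. Its counts summed to 61, 18 and 20 in PY SLC45a2-KO, PY TGR5-KO and PY CYP7a1-KO. With the same guides in WT they summed to 3, 1 and 4. Single PY libraries held 5 to 29, 0 to 9 and 1 to 8 counts in that order, which overlapped. Whether these reads come from the overexpressed YAP was not tested, nor was their part in the levels of the family. In whole larvae, fewer cells of a type and less RNA per cell cannot be told apart.

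The binding protein igfbp1a differed between PY and WT by the largest ratio among the 10 members. In PY SLC45a2-KO the 5 libraries stood at 1968, 2044, 2183, 1988 and 1549 CPM. In WT SLC45a2-KO the 4 libraries stood at 98.2, 110.0, 97.9 and 91.3 CPM. Every PY library was thus far above every WT library, and the ratio of the means, 1946 ± 238 to 99.3 ± 7.78 CPM (SD, n = 5 and 4), was 19.6 (log2 change 4.29 ± 0.16).

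Both bile acid gene knockouts in PY came with a lower igfbp1a level. PY TGR5-KO libraries stood at 488, 545, 732, 635 and 442 CPM, and PY CYP7a1-KO libraries at 356, 599, 575, 539 and 619.6 CPM. All 10 of these libraries lay below the lowest PY SLC45a2-KO library and above every WT library, and the 2 knockout groups overlapped. The PY SLC45a2-KO mean was 3.42 times that of PY TGR5-KO (568 ± 117 CPM, n = 5, log2 change -1.78 ± 0.13) and 3.62 times that of PY CYP7a1-KO (538 ± 106 CPM, n = 5, log2 change -1.86 ± 0.13). Between the 2 knockouts in PY the log2 difference was -0.08 ± 0.13.

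WT larvae with either knockout also had less igfbp1a than WT SLC45a2-KO, by a smaller amount. WT TGR5-KO libraries stood at 59.7, 65.5, 58.7 and 59.0 CPM, and WT CYP7a1-KO libraries at 63.3, 65.0, 78.3 and 69.3 CPM. None of these 8 libraries reached the lowest WT SLC45a2-KO library. The log2 change was -0.71 ± 0.15 with TGR5-KO and -0.52 ± 0.15 with CYP7a1-KO, and the difference between the knockouts was 0.19 ± 0.15. Subtracting the WT change from the PY change (the interaction) gave -1.07 ± 0.20 for TGR5-KO and -1.33 ± 0.20 for CYP7a1-KO, so the lower level in PY was larger also as a ratio. PY larvae with either knockout were still above WT larvae with the same knockout, 9.36 times for TGR5-KO (log2 change 3.23 ± 0.15) and 7.79 times for CYP7a1-KO (2.96 ± 0.15). In order of level the groups ran PY SLC45a2-KO, PY TGR5-KO, PY CYP7a1-KO, WT SLC45a2-KO, WT CYP7a1-KO and WT TGR5-KO, and the neighbours that overlapped were the 2 knockouts in PY and the 2 knockouts in WT.

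**Figure D1:**
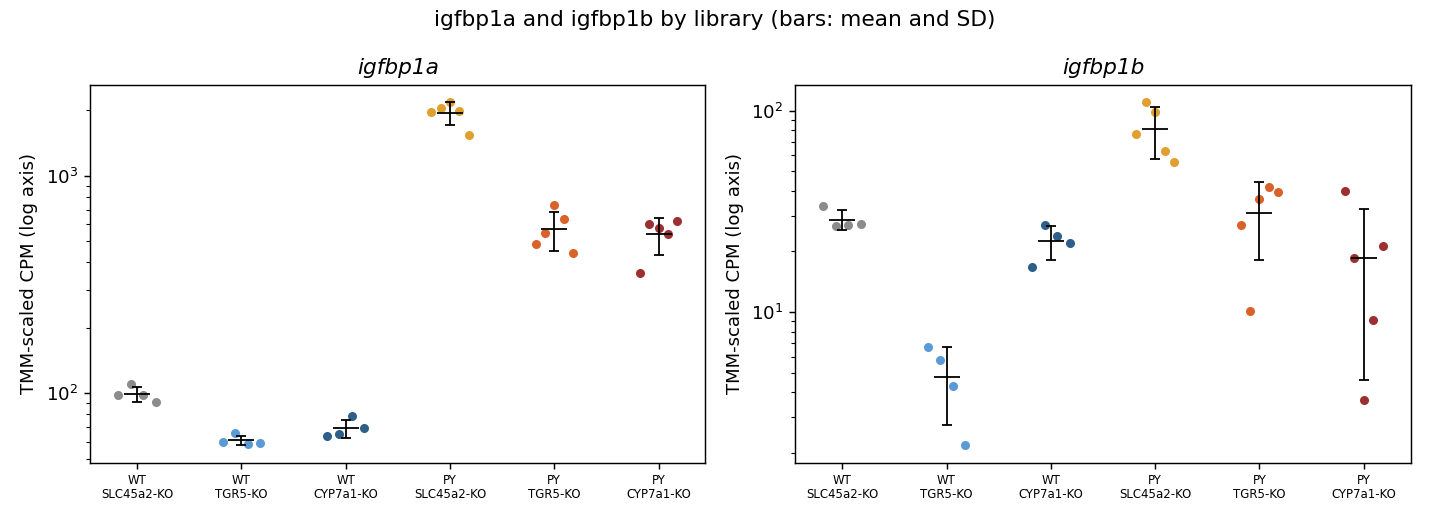
Level of igfbp1a and igfbp1b in each library (points, TMM-scaled CPM, log axis) by group, with the mean and SD of 4 WT or 5 PY libraries as bars. For igfbp1a the PY SLC45a2-KO libraries sit at 1549 to 2183 CPM, the other PY libraries at 356 to 732 and all WT libraries at 58.7 to 110.0. For igfbp1b WT TGR5-KO sits lowest by its mean, at 4.74 ± 1.98 CPM, and its libraries overlap the lowest PY CYP7a1-KO library.

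Its paralog igfbp1b showed another pattern, with its lowest mean level in WT larvae with TGR5-KO. WT TGR5-KO libraries stood at 6.74, 5.76, 4.28 and 2.18 CPM. WT SLC45a2-KO libraries stood at 33.6, 26.7, 27.1 and 27.4 CPM, and WT CYP7a1-KO libraries at 16.8, 27.1, 23.9 and 22.0 CPM. All WT TGR5-KO libraries lay below both other WT groups, which overlapped. The WT SLC45a2-KO mean (28.7 ± 3.25 CPM, n = 4) was 6.06 times the WT TGR5-KO mean (4.74 ± 1.98 CPM, n = 4, log2 change -2.59 ± 0.53), and WT CYP7a1-KO changed by -0.35 ± 0.46 against WT SLC45a2-KO.

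In PY, igfbp1b was highest with SLC45a2-KO alone. The libraries stood at 76.2, 110.1, 98.8, 63.3 and 55.5 CPM in PY SLC45a2-KO, at 26.9, 10.2, 36.6, 41.8 and 39.5 CPM in PY TGR5-KO and at 39.8, 18.5, 3.65, 9.09 and 21.3 CPM in PY CYP7a1-KO. Every PY SLC45a2-KO library was above every library of the other 5 groups, while PY TGR5-KO and PY CYP7a1-KO overlapped each other. Against PY SLC45a2-KO the log2 change was -1.39 ± 0.40 for PY TGR5-KO and -2.15 ± 0.42 for PY CYP7a1-KO. Without PY CYP7a1-KO libraries 1 and 2, which stand apart, the latter was -2.82. The spread within PY CYP7a1-KO was wide, with an SD of 75.2% of the mean.

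Against WT with the same guides, igfbp1b thus differed by a log2 change of 1.49 ± 0.43 in PY SLC45a2-KO, 2.70 ± 0.52 in PY TGR5-KO and -0.31 ± 0.44 in PY CYP7a1-KO. The last value was -0.98 without libraries 1 and 2. For CYP7a1-KO the interaction was -1.80 ± 0.61 (-2.48 without libraries 1 and 2), and for TGR5-KO it was 1.21 ± 0.66, of opposite sign. For TGR5-KO the interactions of the 2 paralogs thus had opposite signs, below 0 for igfbp1a and above 0 for igfbp1b. That of igfbp1b did not pass the edgeR threshold. Their changes of PY against WT were closest with TGR5-KO, at 3.23 for igfbp1a and 2.70 for igfbp1b. Over the 27 libraries log2 levels of igfbp1a and igfbp1b had a Pearson r of 0.600, and deviations from group means had -0.114. These correlations share libraries and depth and are descriptions only.

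The binding protein igfbp5b, whose mammalian counterpart is produced by muscle, bone and other tissues, varied little by comparison. It stood at 202 ± 16.5, 239 ± 21.9 and 279 ± 14.6 CPM (n = 4 each) in WT with SLC45a2-KO, TGR5-KO and CYP7a1-KO and at 177 ± 26.4, 196 ± 15.7 and 215 ± 30.03 CPM (n = 5 each) in PY in the same order. The order of the guides by mean was the same in both backgrounds, and the 3 PY groups overlapped. In WT the 4 CYP7a1-KO libraries at 289.7, 276, 260.0 and 291 CPM lay above the 4 SLC45a2-KO libraries at 226, 192, 198 and 191 CPM (log2 change 0.47 ± 0.13). PY CYP7a1-KO was below WT CYP7a1-KO by a log2 change of -0.37 ± 0.12, without overlap. With SLC45a2-KO the change between backgrounds was -0.19 ± 0.12 and with TGR5-KO -0.29 ± 0.12, with overlap.

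The binding protein igfbp5a, which in zebrafish acts in the skin cells that take up calcium, had a lower mean in PY than in WT with each set of guides. WT libraries ranged from 3.21 to 12.2 CPM and PY libraries from 0 to 6.08. The 3 WT means were 5.92 ± 1.86, 6.72 ± 3.69 and 6.77 ± 2.81 CPM (n = 4 each) and the 3 PY means 2.04 ± 2.31, 1.59 ± 0.985 and 1.72 ± 1.70 CPM (n = 5 each), for SLC45a2-KO, TGR5-KO and CYP7a1-KO. The log2 changes of PY against WT were -1.57 ± 0.64, -2.05 ± 0.65 and -1.97 ± 0.64. In PY SLC45a2-KO library 4, at 6.08 CPM, stood above the other 4 libraries (0.249 to 1.48 CPM), and without it the first change was -2.48. The change ran the same way for all 3 guide sets, and the TGR5-KO and CYP7a1-KO interactions were -0.47 ± 0.92 and -0.40 ± 0.91, inside their errors, and 0.43 and 0.49 without that library.

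The pair igfbp2a and igfbp2b, homologs of a mammalian binding protein with a broad tissue distribution, was lower in PY SLC45a2-KO than in WT SLC45a2-KO. Libraries of igfbp2b stood at 6.47, 7.59, 5.23, 11.1 and 6.996 CPM in PY SLC45a2-KO and at 17.0, 21.2, 14.2 and 14.9 CPM in WT SLC45a2-KO, without overlap (log2 change -1.17 ± 0.26). In PY CYP7a1-KO they stood at 14.3, 11.8, 10.3, 10.9 and 14.2 CPM, against 12.7, 15.2, 9.67 and 16.1 CPM in WT CYP7a1-KO. With CYP7a1-KO the backgrounds thus overlapped (log2 change -0.13 ± 0.25), and the CYP7a1-KO interaction of igfbp2b was 1.05 ± 0.36.

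For TGR5-KO igfbp2b was at 10.9 ± 4.94 CPM (n = 5) in PY and 18.4 ± 2.43 CPM (n = 4) in WT (-0.76 ± 0.25), with overlap. For igfbp2a the counts were few: 5 counts over the 5 PY SLC45a2-KO libraries, 2 of them at 0, and 37 over the 4 WT SLC45a2-KO libraries. The log2 change of -2.94 ± 0.85 became -3.80 without PY SLC45a2-KO library 1, which held 3 of the 5 counts. The 6 groups held 5 to 49 counts of igfbp2a, so its levels (0 to 3.27 CPM) lie close to the limit of detection.

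The mean level of igfbp3, which in mammals is the main carrier in plasma together with the acid-labile subunit, moved in opposite directions with the knockouts in the 2 backgrounds. No single knockout change of igfbp3 within a background passed the edgeR threshold. WT SLC45a2-KO libraries stood at 28.2, 17.1, 22.5 and 22.5 CPM, WT TGR5-KO libraries at 33.0, 42.0, 35.7 and 29.8 CPM and WT CYP7a1-KO libraries at 24.4, 28.9, 36.9 and 36.7 CPM. PY SLC45a2-KO libraries stood at 33.3, 47.0, 32.8, 32.1 and 31.8 CPM, PY TGR5-KO libraries at 26.5, 33.2, 18.7, 24.7 and 27.6 CPM and PY CYP7a1-KO libraries at 13.8, 29.7, 32.2, 27.6 and 21.3 CPM. In WT the knockout means lay above SLC45a2-KO (log2 changes 0.64 ± 0.21 for TGR5-KO, without overlap, and 0.49 ± 0.21 for CYP7a1-KO), and in PY they lay below it (-0.44 ± 0.19 and -0.51 ± 0.19, with overlap). The interactions were -1.07 ± 0.28 for TGR5-KO and -1.0001 ± 0.28 for CYP7a1-KO. PY SLC45a2-KO was above WT SLC45a2-KO by 0.65 ± 0.20, without overlap.

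**Figure D2:**
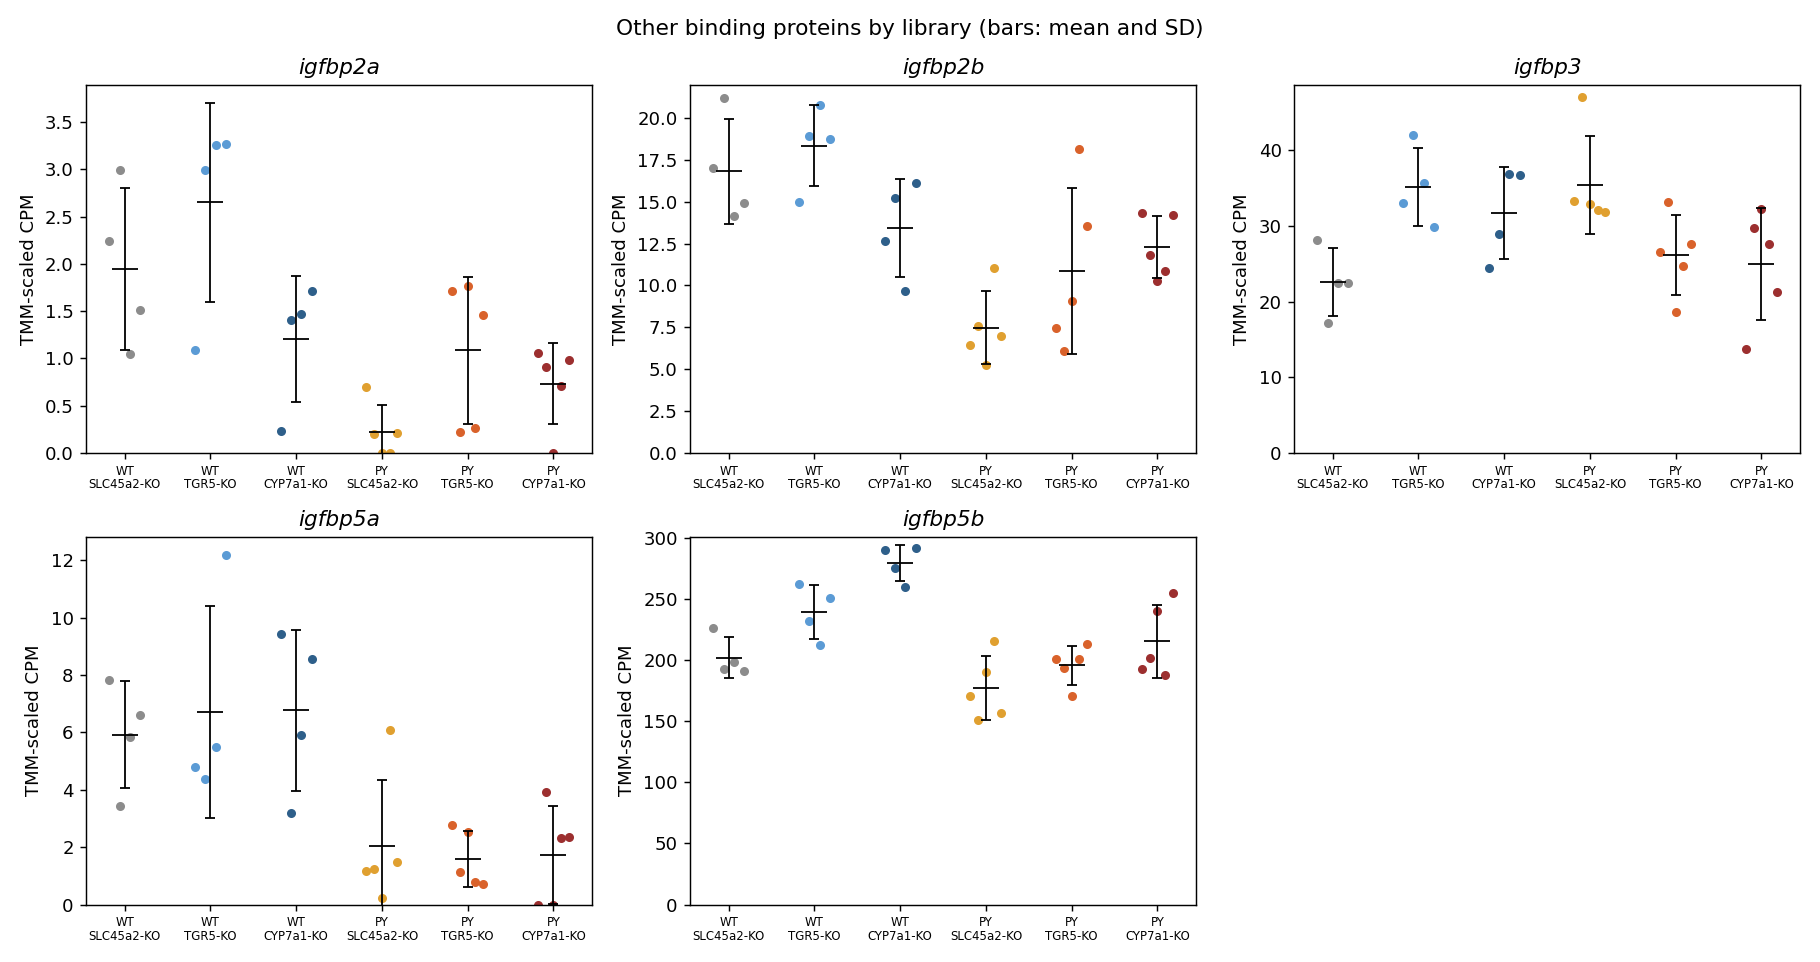
Level of igfbp2a, igfbp2b, igfbp3, igfbp5a and igfbp5b in each library (points, TMM-scaled CPM, linear axes from 0) by group, with the mean and SD of 4 WT or 5 PY libraries as bars. PY libraries of igfbp5a sit at 0 to 6.08 CPM under all guide sets, against 3.21 to 12.2 in WT, and igfbp2b is lowest in PY SLC45a2-KO, at 7.47 ± 2.19 CPM.

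Among the ligands, igf2a had a higher mean and igf1 a lower mean in PY than in WT with each set of guides. The igf2a libraries of PY SLC45a2-KO stood at 23.8, 29.5, 34.8, 32.3 and 30.1 CPM and those of WT SLC45a2-KO at 8.72, 10.9, 14.6 and 12.1 CPM, without overlap. The ratio of the means was 2.60 (30.1 ± 4.10 to 11.6 ± 2.44 CPM, n = 5 and 4, log2 change 1.37 ± 0.21). With TGR5-KO the libraries were at 18.1 to 33.0 CPM in PY and 8.50 to 13.4 in WT, also without overlap (1.14 ± 0.21). With CYP7a1-KO they were at 19.2 to 32.1 CPM in PY and 14.4 to 21.1 in WT, which overlapped (0.45 ± 0.20). The WT CYP7a1-KO level of igf2a, 17.8 ± 3.19 CPM (n = 4), was higher than that of WT TGR5-KO (11.3 ± 2.09 CPM, n = 4) by 0.66 ± 0.22, without overlap. Against SLC45a2-KO of the same background the CYP7a1-KO change was 0.62 ± 0.22 in WT and -0.31 ± 0.19 in PY, both with overlap. The CYP7a1-KO interaction was -0.92 ± 0.29.

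The paralog igf2b stood at 25.1 ± 6.69 CPM in PY SLC45a2-KO and at 12.8 ± 3.71 in WT SLC45a2-KO (n = 5 and 4, log2 change 0.97 ± 0.32), and the lowest PY library (15.5 CPM) lay below the highest WT library (17.1). With TGR5-KO and CYP7a1-KO the log2 changes between backgrounds were 0.53 ± 0.33 and 0.37 ± 0.32. PY TGR5-KO libraries of igf2b ranged from 8.0005 to 25.2 CPM and PY CYP7a1-KO libraries from 14.1 to 19.1. All these groups overlapped.

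The growth hormone dependent ligand igf1 stood at 2.08, 4.72, 3.48, 5.80 and 2.54 CPM in PY SLC45a2-KO and at 16.8, 6.20, 4.79 and 6.80 CPM in WT SLC45a2-KO. The groups overlapped, and WT SLC45a2-KO library 1 stood far above the other 3 libraries of its group. The log2 change was -1.21 ± 0.36, and -0.69 without that library. With TGR5-KO and CYP7a1-KO the igf1 changes of PY against WT were -0.61 ± 0.34 and -0.11 ± 0.36, with overlap. With TGR5-KO and CYP7a1-KO in PY, igf1 stood at 6.95 ± 2.62 and 5.92 ± 2.55 CPM (n = 5 each), 0.91 ± 0.35 and 0.66 ± 0.36 above PY SLC45a2-KO on the log2 scale, with overlap. WT TGR5-KO (10.7 ± 1.92 CPM, n = 4) lay above WT CYP7a1-KO (6.31 ± 1.75 CPM, n = 4) in every library, by 0.75 on the log2 scale (-0.75 ± 0.36 for CYP7a1-KO minus TGR5-KO).

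**Figure D3:**
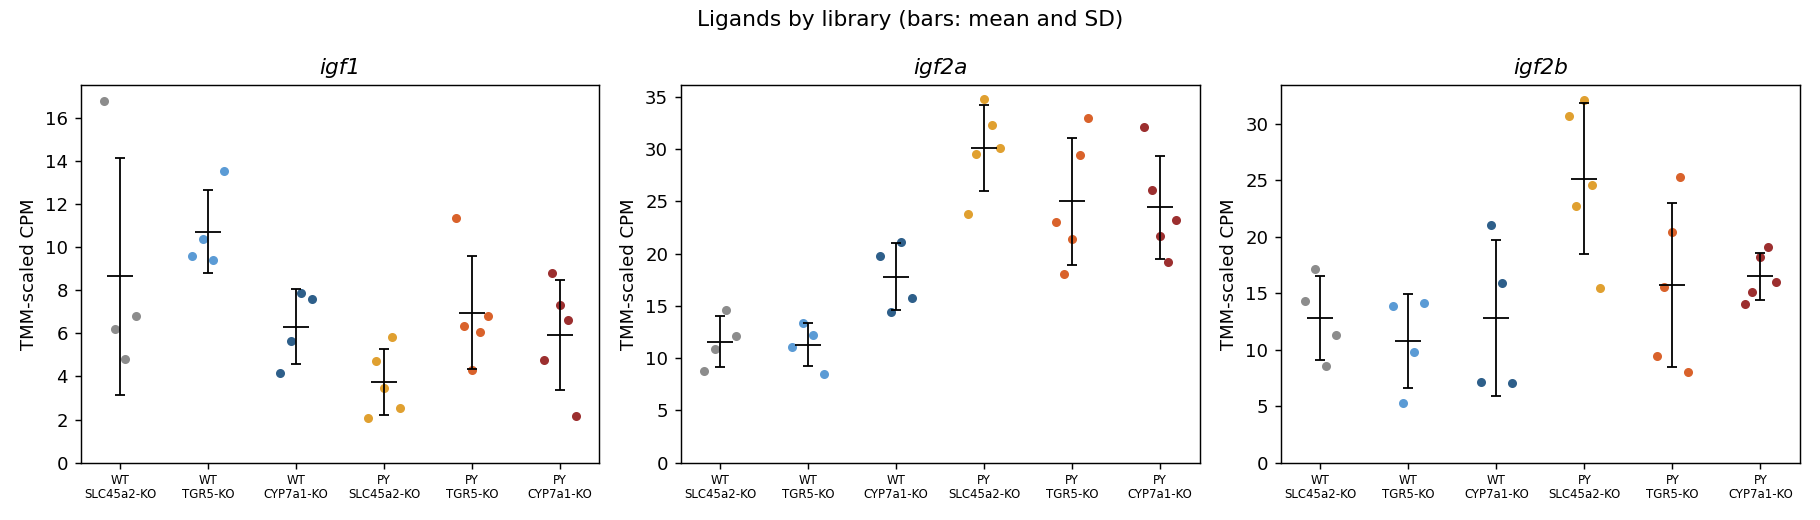
Level of igf1, igf2a and igf2b in each library (points, TMM-scaled CPM, linear axes from 0) by group, with the mean and SD of 4 WT or 5 PY libraries as bars. For igf2a the PY SLC45a2-KO libraries sit at 23.8 to 34.8 CPM and the WT SLC45a2-KO libraries at 8.72 to 14.6. For igf1 a single WT SLC45a2-KO library sits at 16.8 CPM.

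Since these contrasts were known when the family was chosen, the number of members past the edgeR threshold (adjusted p under 0.05 over 15521 tested genes) is set beside the share of all genes, and nothing is read from it. For PY against WT it was 5 higher and 3 lower of 10 with SLC45a2-KO (35.6% of all genes called), 3 and 2 with TGR5-KO (19.9%) and 1 and 2 with CYP7a1-KO (23.2%). Within PY it was 0 and 2 for TGR5-KO (11.4%) and 1 and 2 for CYP7a1-KO (13.4%) against SLC45a2-KO. Within WT it was 0 and 2 for TGR5-KO (6.49%) and 1 and 1 for CYP7a1-KO (11.6%). Between CYP7a1-KO and TGR5-KO it was 0 in PY (0.135%) and 2 higher in WT (21.1%). It was 0 and 2 for the TGR5-KO interaction (6.70%) and 1 and 4 for the CYP7a1-KO interaction (17.8%). With 1 library left out the CYP7a1-KO interaction count of 5 became 2 (without WT CYP7a1-KO replicate 3 or WT SLC45a2-KO replicate 1) or 3 (without PY SLC45a2-KO replicate 1 or 3 or WT SLC45a2-KO replicate 2). The count of 3 for PY against WT with CYP7a1-KO became 1 without WT CYP7a1-KO replicate 4. Counts of 2 became 1 for PY TGR5-KO without PY SLC45a2-KO replicate 2 or 3 or PY TGR5-KO replicate 1 or 2, for WT CYP7a1-KO against WT SLC45a2-KO without WT SLC45a2-KO replicate 2, and between the knockouts in WT without WT CYP7a1-KO replicate 1 or 3 or WT TGR5-KO replicate 1 or 4. The median log2 change of the 10 members in PY against WT with SLC45a2-KO was 0.23, against -0.02 over all tested genes. All 10 members passed the filter on low counts, igfbp2a with the fewest counts.

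**Figure D4:**
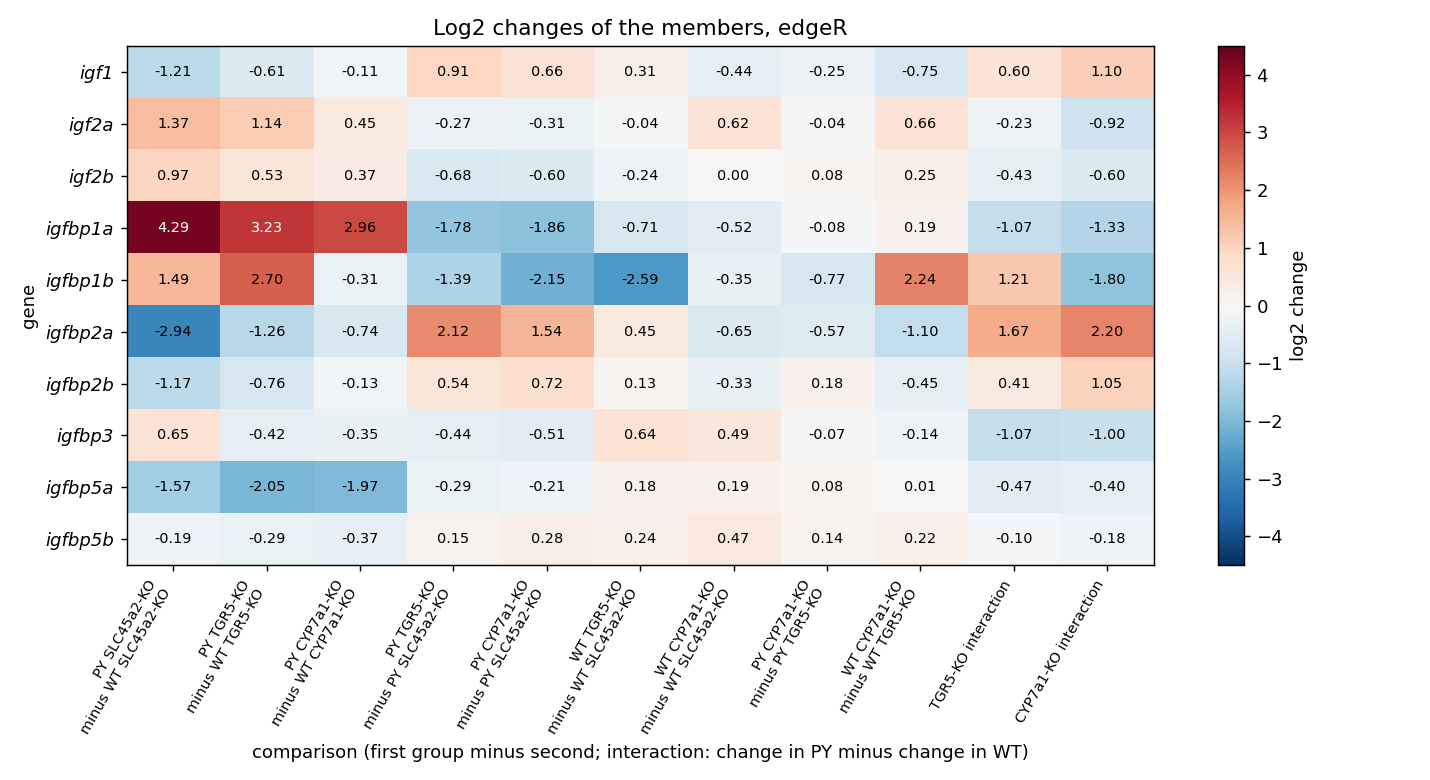
Log2 changes of the 10 members (rows) in 9 comparisons of groups and 2 interactions (columns), from edgeR, coloured from blue (lower) to red (higher) and printed in each cell. The largest value is that of igfbp1a in PY SLC45a2-KO against WT SLC45a2-KO, at 4.29, with 3.23 and 2.96 for the same gene under TGR5-KO and CYP7a1-KO.

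Hepatocyte markers differed between the same groups, though not in the order of the igfbp1a changes. The summed level of the listed hepatocyte genes was 15636 to 20159 CPM in WT SLC45a2-KO, 17270.3 to 20797 in WT TGR5-KO and 10439 to 12226 in WT CYP7a1-KO. In PY it was 26201 to 34814 with SLC45a2-KO, 23719 to 31950.0 with TGR5-KO and 21195 to 30864 with CYP7a1-KO. Of 28 tested hepatocyte genes 15 rose and 2 fell in PY against WT with SLC45a2-KO (35.6% of all genes called). With TGR5-KO 10 rose and 3 fell (19.9%), and with CYP7a1-KO 22 rose and 0 fell (23.2%). Their median log2 changes were 0.61, 0.43 and 1.25, beside igfbp1a changes of 4.29, 3.23 and 2.96. Against SLC45a2-KO of the same background 1 rose and 9 fell in PY TGR5-KO, 3 rose and 6 fell in PY CYP7a1-KO and 0 rose and 18 fell in WT CYP7a1-KO. In WT TGR5-KO 0 rose and 0 fell, while igfbp1a was lower there. The listed hepatocyte genes serpinc1 and rbp2b were at 0 in all 27 libraries, and hnf4a held 8 counts in all.

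Per 1000 CPM of summed hepatocyte markers, igfbp1a was at 66.0 ± 5.81, 22.0 ± 5.35 and 21.3 ± 3.38 CPM (n = 5 each) in PY with SLC45a2-KO, TGR5-KO and CYP7a1-KO. It was at 5.71 ± 0.621, 3.22 ± 0.275 and 6.23 ± 0.970 (n = 4 each) in WT with SLC45a2-KO, TGR5-KO and CYP7a1-KO. The libraries of PY SLC45a2-KO (59.1 to 73.1) still lay apart from those of the other PY groups (13.8 to 26.8) and from WT (2.82 to 7.50), whereas WT CYP7a1-KO (5.18 to 7.50) overlapped WT SLC45a2-KO (4.86 to 6.28). Between log2 levels of igfbp1a and of the summed markers r was 0.824 over 27 libraries, and between deviations from group means 0.290. Summed muscle fibre markers, of which PY SLC45a2-KO had 38783 to 51656 CPM and WT SLC45a2-KO 60464 to 68526, and summed cartilage and bone markers, at 393 to 515 and 1169 to 1494 CPM, were lower in PY SLC45a2-KO. In PY TGR5-KO they were 55997 to 74714 and 825 to 1093 CPM, and in PY CYP7a1-KO 46946 to 78178 and 612 to 1183 CPM. Their part in the levels of the 10 genes was not tested.

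The remaining pathway was read from lists of genes by textbook function, chosen with earlier results known, of which 151 genes outside the family were tested. In PY SLC45a2-KO against WT SLC45a2-KO 57 of the 151 rose and 15 fell. In PY TGR5-KO against PY SLC45a2-KO 6 rose and 26 fell, and in PY CYP7a1-KO against PY SLC45a2-KO 11 rose and 39 fell. In WT 10 rose and 24 fell with TGR5-KO and 16 rose and 18 fell with CYP7a1-KO. Called in all were 47.7%, 21.2%, 33.1%, 22.5% and 22.5% of the 151, against 35.6%, 11.4%, 13.4%, 6.49% and 11.6% of all tested genes. Their median log2 changes were 0.39, -0.21, -0.21, -0.17 and 0.01, against medians over all genes between -0.02 and 0.02. Counts from single lists are to be read beside the share of all genes called in the same comparison, given above with the member counts. Called genes named below that lie outside the rule for naming were chosen after their values were seen.

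The acid-labile subunit gene igfals, whose product joins Igfbp3 and an Igf in the long-lived plasma complex, rose in PY against WT under all 3 guide sets. Its level was 4.67 ± 1.73, 3.79 ± 1.51 and 3.33 ± 1.41 CPM (n = 4 each) in WT and 13.8 ± 1.79, 10.4 ± 3.21 and 13.9 ± 4.29 CPM (n = 5 each) in PY, for SLC45a2-KO, TGR5-KO and CYP7a1-KO. The igfals log2 changes were 1.55 ± 0.32 (adjusted p = 9.4e-05), 1.46 ± 0.33 (adjusted p = 0.00088) and 2.07 ± 0.33 (adjusted p = 3.5e-06) in edgeR. Of the 11 tested genes of other ligands, binding proteins and proteases 3 rose and 2 fell in PY SLC45a2-KO against WT SLC45a2-KO. The pappalysin gene pappab, a protease of binding proteins, was among those that fell (log2 change -2.45 ± 0.70, edgeR adjusted p = 0.0047), from 61 counts in WT SLC45a2-KO to 12 in PY SLC45a2-KO, and stc2b, a stanniocalcin whose mammalian counterpart inhibits pappalysins, rose (3.12 ± 0.92, adjusted p = 0.0059), from 9 counts to 91.

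Among the receptors, igf1rb had almost no counts in PY. The 3 WT groups held 64, 94 and 175 counts of igf1rb (3.20 ± 2.68, 5.18 ± 2.74 and 8.69 ± 4.32 CPM, n = 4 each) and the 3 PY groups 1, 5 and 19 counts (0.0410 ± 0.0917, 0.230 ± 0.235 and 0.839 ± 0.836 CPM, n = 5 each). Every WT library held at least 2 counts of igf1rb, and 4 of 5 PY SLC45a2-KO libraries held 0. Of the 64 WT SLC45a2-KO counts 34 came from 1 library, and the PY SLC45a2-KO count is 1 read in 1 library. As shares of all counts, WT held 68.9 times as much as PY with SLC45a2-KO (95% exact interval 11.9 to 2765, counting error only), 22.5 times with TGR5-KO (9.31 to 70.9) and 9.80 times with CYP7a1-KO (6.09 to 16.7). The edgeR adjusted p-values were 5.6e-06, 2.0e-05 and 4.2e-05. The fitted log2 change of igf1rb with SLC45a2-KO, -5.47, was -6.89 without PY SLC45a2-KO replicate 2 and -4.88 without WT SLC45a2-KO replicate 4, so the size of the first ratio rests on single libraries. The other copy, igf1ra, was at 0 in all 27 libraries, as was the insulin gene ins. Since a gene as widely used as the muscle troponin gene tnnc2 held 3 counts in all, a level of 0 in this table says little of the transcript, and 0 counts allow up to 3 per library.

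The insulin receptor gene insra rose in PY SLC45a2-KO against WT SLC45a2-KO by 0.53 ± 0.17 (edgeR adjusted p = 0.010) and fell in WT TGR5-KO against WT SLC45a2-KO by 0.68 (SE 0.18, adjusted p = 0.012, but 0.051 without WT TGR5-KO replicate 2). Its level was 58.6 ± 5.12 CPM in WT SLC45a2-KO, 36.4 ± 3.53 in WT TGR5-KO and 84.8 ± 13.97 in PY SLC45a2-KO (n = 4, 4 and 5). The second insulin receptor gene insrb (1.49 ± 0.52, adjusted p = 0.019) and igf2r, which clears Igf2 in mammals (0.70 ± 0.23, adjusted p = 0.013), rose in PY SLC45a2-KO, and both calls were lost on leaving out WT SLC45a2-KO replicate 3 (adjusted p = 0.052 and 0.061), that of insrb also without WT SLC45a2-KO replicate 2 (0.066) or PY SLC45a2-KO replicate 3 (0.091). Of 18 tested receptors and adaptors 7 rose and 2 fell in PY SLC45a2-KO against WT, 1 rose and 2 fell in PY TGR5-KO and 2 rose and 1 fell in PY CYP7a1-KO against PY SLC45a2-KO. The phosphatase gene ptpn11a rose in WT TGR5-KO against WT SLC45a2-KO by 0.62 ± 0.15 (adjusted p = 0.0050). Weaker calls were the adaptor grb2b in PY TGR5-KO against WT TGR5-KO (-0.35 ± 0.13, adjusted p = 0.047, lost in 14 of 36 alternatives) and the Ras activator sos2 in PY TGR5-KO against PY SLC45a2-KO (0.71 ± 0.23, adjusted p = 0.031, lost in 8 of 36). The insulin receptor substrate irs2a, which like igfbp1b was lowest in WT TGR5-KO and highest in PY SLC45a2-KO by its means, stood at 17.9 ± 1.59, 8.24 ± 1.86 and 17.7 ± 2.98 CPM in WT (n = 4 each) and 40.9 ± 5.75, 18.3 ± 4.49 and 18.8 ± 7.01 CPM in PY (n = 5 each).

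In WT TGR5-KO, where igfbp1b was lowest, genes of the FoxO list fell: 0 of 25 tested genes rose and 9 fell against WT SLC45a2-KO. The transcription factor foxo1a fell from 85.0 ± 4.13 to 30.3 ± 2.36 CPM (n = 4 each, log2 change -1.49 ± 0.17, edgeR adjusted p = 1.4e-08). The muscle ubiquitin ligase fbxo32 (atrogin-1) fell by 3.09 (SE 0.59, adjusted p = 0.0019), txnipb, an inhibitor of thioredoxin, by 1.74 (SE 0.47, adjusted p = 0.022), and the pyruvate dehydrogenase kinase pdk4, the sestrin sesn1 and the mTOR inhibitor ddit4 by 1.58, 1.47 and 1.48 (adjusted p = 2.1e-06, 0.00027 and 2.2e-05). The txnipb call was lost on leaving out WT SLC45a2-KO replicate 1 or 3 or WT TGR5-KO replicate 1, 3 or 4 (highest adjusted p = 0.071). In WT CYP7a1-KO, where igfbp1b overlapped WT SLC45a2-KO, foxo1a rose by 0.59 ± 0.16 (adjusted p = 0.0084) and 5 of the 25 genes rose and 4 fell, among them ddit4 at -1.54 ± 0.23 (adjusted p = 5.3e-06) and g6pca.1, a catalytic subunit of glucose-6-phosphatase, at -1.39 ± 0.35 (adjusted p = 0.0053).

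Of 28 tested genes of the PI3K to mTOR relay 4 rose and 4 fell in WT TGR5-KO against WT SLC45a2-KO. The kinase pdpk1a, which activates AKT, fell from 12.0 ± 1.32 to 1.83 ± 1.07 CPM (n = 4 each, -2.69 ± 0.37, edgeR adjusted p = 1.9e-06), and eif4ebp3l, a repressor of translation that mTOR inactivates, fell from 55.7 ± 2.50 to 13.0 ± 3.16 CPM (-2.10 ± 0.23, adjusted p = 1.5e-08). The kinase gsk3b rose by 0.69 ± 0.17 (adjusted p = 0.0062). In PY TGR5-KO against PY SLC45a2-KO 0 of the 28 rose and 2 fell, and the interaction was 2.16 ± 0.46 for pdpk1a (adjusted p = 0.0015), 1.41 ± 0.29 for eif4ebp3l (adjusted p = 0.0013) and 1.26 ± 0.22 for foxo1a (adjusted p = 8.7e-05). In PY SLC45a2-KO against WT SLC45a2-KO (35.6% of all genes called) 11 rose and 2 fell, among the latter si:dkeyp-80c12.7.

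In PY the FoxO list moved with igfbp1b in part. Of its 25 tested genes 9 rose and 2 fell in PY SLC45a2-KO against WT SLC45a2-KO (35.6% of all genes called). In PY TGR5-KO against WT TGR5-KO 14 rose and 0 fell (19.9%), and in PY CYP7a1-KO against WT CYP7a1-KO 5 rose and 4 fell (23.2%). Against PY SLC45a2-KO 1 rose and 4 fell with TGR5-KO and 4 rose and 9 fell with CYP7a1-KO. The kinase pdk4 fell in PY CYP7a1-KO from 97.0 ± 21.0 to 37.5 ± 11.3 CPM (n = 5 each, -1.38 ± 0.18, edgeR adjusted p = 7.2e-07), while in WT it rose with CYP7a1-KO from 55.1 ± 4.94 to 91.4 ± 2.22 CPM (n = 4 each, 0.73 ± 0.20, adjusted p = 0.010), and its interaction was -2.11 ± 0.27 (adjusted p = 2.7e-07). The phosphatase gene g6pca.1 rose in PY CYP7a1-KO against WT CYP7a1-KO by 2.19 ± 0.33 (adjusted p = 2.2e-06), and the catalase gene cat was higher in PY TGR5-KO than in PY SLC45a2-KO by 0.54 ± 0.14 (adjusted p = 0.0046). The factor foxo4 had a CYP7a1-KO interaction of -2.03 ± 0.30 (adjusted p = 2.4e-06) and foxo1a one of -1.11 ± 0.21 (adjusted p = 0.00015). The factor foxo3a rose in PY CYP7a1-KO against WT CYP7a1-KO by 1.097 ± 0.23 (adjusted p = 0.00026), as did foxo3b by 0.67 ± 0.16 (adjusted p = 0.0011, but 0.060 without PY CYP7a1-KO libraries 1 and 2), and foxo1b held at most 13 counts in a group.

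Genes of the growth hormone axis, which drives igf1 in liver, rose more often than they fell in PY, where the mean of igf1 was not above that of WT under any guides. Of 15 tested genes 9 rose and 1 fell in PY SLC45a2-KO against WT SLC45a2-KO, 4 rose and 0 fell with TGR5-KO and 7 rose and 0 fell with CYP7a1-KO. Their median log2 changes were 1.01, 0.67 and 1.29, beside 0.61, 0.43 and 1.25 for the hepatocyte genes, whose part in this was not tested. The receptor ghra went from 3.25 ± 1.49 to 9.64 ± 2.02 CPM with SLC45a2-KO (1.58 ± 0.35, edgeR adjusted p = 0.00033), and by 1.47 ± 0.33 with CYP7a1-KO (adjusted p = 0.00068). With TGR5-KO the ghra change of 0.87 ± 0.32 had an adjusted p of 0.049, which rose above 0.05 in 26 of 36 alternatives (highest 0.16, without PY TGR5-KO replicate 1). The receptor ghrb rose with SLC45a2-KO by 1.01 ± 0.32 (adjusted p = 0.011, but 0.064 without WT SLC45a2-KO replicate 3), and changed by 0.27 ± 0.33 and 0.15 ± 0.32 with TGR5-KO and CYP7a1-KO (adjusted p = 0.61 and 0.78). The feedback inhibitor socs2, which STAT5 induces, rose by 1.82 ± 0.25, 1.37 ± 0.25 and 1.36 ± 0.25 with SLC45a2-KO, TGR5-KO and CYP7a1-KO (adjusted p = 4.2e-08, 5.9e-05 and 3.7e-05). A second one, cish, rose by 1.78 ± 0.23, 0.83 ± 0.24 and 1.80 ± 0.25 (adjusted p = 2.7e-08, 0.011 and 2.3e-07), and its TGR5-KO call was lost without PY TGR5-KO replicate 3 (0.10) or WT TGR5-KO replicate 1 (0.055). The hormone gene gh1 fell with SLC45a2-KO from 73 counts in WT to 19 in PY (-2.10 ± 0.74, adjusted p = 0.023, but 0.061 without PY SLC45a2-KO replicate 3 and 0.070 without WT SLC45a2-KO replicate 3).

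Within PY, cish fell with TGR5-KO by 1.39 (SE 0.21, edgeR adjusted p = 6.9e-06). Of the 15 growth hormone axis genes 0 rose and 4 fell with TGR5-KO and 1 rose and 5 fell with CYP7a1-KO against PY SLC45a2-KO, the riser being the somatostatin gene sst1.1 (0.91 ± 0.25, adjusted p = 0.012). Its CYP7a1-KO interaction was 1.91 ± 0.37 (adjusted p = 0.00055). In the list of insulin, glucagon and islet genes 0 of 10 rose and 2 fell in PY SLC45a2-KO against WT SLC45a2-KO, the somatostatin gene sst2 (-1.46 ± 0.25, adjusted p = 7.8e-06) and the prohormone convertase pcsk2 (-1.18 ± 0.25, adjusted p = 0.00016). Of the islet transcription factors, which neurons also use, neurod1 and pax6b rose in WT CYP7a1-KO against WT SLC45a2-KO, by 1.11 ± 0.22 and 1.11 ± 0.26 (adjusted p = 0.00043 and 0.0022), and neurod1 fell in PY CYP7a1-KO against WT CYP7a1-KO by 1.21 (SE 0.21, adjusted p = 2.1e-05).

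Lists of conditions known to raise Igfbp1 were read beside igfbp1a. Of 19 tested hypoxia genes 9 rose and 0 fell in PY SLC45a2-KO against WT SLC45a2-KO, 1 rose and 8 fell in PY TGR5-KO and 1 rose and 11 fell in PY CYP7a1-KO against PY SLC45a2-KO. In PY TGR5-KO against WT TGR5-KO 3 rose and 0 fell (19.9% of all genes called). In PY CYP7a1-KO against WT CYP7a1-KO 4 rose and 3 fell (23.2%). The level of igfbp1a was higher in PY in both. In WT 3 rose and 1 fell with each knockout against SLC45a2-KO, where igfbp1a was lower. The oxygen sensor egln3, itself induced by hypoxia, went from 9.06 ± 3.23 CPM (n = 4) in WT SLC45a2-KO to 84.9 ± 17.8 (n = 5) in PY SLC45a2-KO (3.23 ± 0.39, edgeR adjusted p = 4.3e-07) and stood at 33.6 ± 19.3 and 33.1 ± 9.79 CPM (n = 5 each) in PY larvae with TGR5-KO and with CYP7a1-KO (-1.34 ± 0.32, adjusted p = 0.0071, and -1.37 ± 0.32, adjusted p = 0.0052). In WT TGR5-KO egln3 stood at 21.7 ± 3.23 CPM (n = 4), a change from WT SLC45a2-KO of 1.27 ± 0.40 that missed the threshold (adjusted p = 0.058), while igfbp1a was lower there, and the egln3 interaction for TGR5-KO was -2.60 ± 0.51 (adjusted p = 0.0021). Within PY the stress gene ndrg1a fell with TGR5-KO (-1.42 ± 0.18, adjusted p = 1.1e-06) and the peptide hormone gene adma fell with CYP7a1-KO (-1.36 ± 0.25, adjusted p = 0.00015). The gene that went the other way there was higd1a, a mitochondrial protein induced by hypoxia, at 56.6 ± 8.77, 90.5 ± 32.3 and 89.1 ± 20.7 CPM in PY (n = 5 each) with SLC45a2-KO, TGR5-KO and CYP7a1-KO. It rose by 0.68 ± 0.19 with TGR5-KO (adjusted p = 0.016, but 0.053 without PY SLC45a2-KO replicate 3 and 0.11 without PY TGR5-KO replicate 2) and by 0.65 ± 0.19 with CYP7a1-KO (adjusted p = 0.017, but 0.057 without PY SLC45a2-KO replicate 3, 0.056 without PY CYP7a1-KO replicate 4 and 0.079 without PY CYP7a1-KO libraries 1 and 2). In WT TGR5-KO higd1a rose by 0.78 ± 0.21 (adjusted p = 0.018, but over 0.05 without WT SLC45a2-KO replicate 1, 2 or 3 or WT TGR5-KO replicate 1 or 3, at most 0.073), and bnip3, which marks mitochondria for removal, rose in WT CYP7a1-KO by 0.99 ± 0.26 (adjusted p = 0.0077, but 0.058 without WT SLC45a2-KO replicate 4). The gene vhl, whose product marks hypoxia-inducible factors for degradation, fell in PY CYP7a1-KO against WT CYP7a1-KO by 1.61 (SE 0.40, adjusted p = 0.0019). The growth factor gene vegfab rose in WT TGR5-KO against WT SLC45a2-KO by 1.03 ± 0.22 (adjusted p = 0.0016) and had a TGR5-KO interaction of -1.36 ± 0.29 (adjusted p = 0.0014).

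Of 18 tested genes of the amino acid response 7 rose and 3 fell in PY SLC45a2-KO against WT SLC45a2-KO, 1 rose and 4 fell in PY TGR5-KO and 1 rose and 6 fell in PY CYP7a1-KO against PY SLC45a2-KO. In PY TGR5-KO against WT TGR5-KO 7 rose and 2 fell (19.9% of all genes called). In PY CYP7a1-KO against WT CYP7a1-KO 4 rose and 2 fell (23.2%). The transcription factor atf3 rose in PY SLC45a2-KO by 2.22 ± 0.29 (edgeR adjusted p = 5.7e-07) and fell in PY with TGR5-KO and CYP7a1-KO, at -1.80 ± 0.26 and -1.78 ± 0.26 (adjusted p = 2.8e-05 and 2.7e-05). Against WT SLC45a2-KO, atf3 rose in WT TGR5-KO by 1.06 ± 0.30 (adjusted p = 0.028, lost in 4 of 36 alternatives), while igfbp1a was lower there. In WT CYP7a1-KO, where igfbp1a was also lower, the atf3 change was -1.35 ± 0.33 (adjusted p = 0.0058). The serine synthesis gene phgdh, a target of the same response, went the other way, at -1.99 ± 0.29 in PY SLC45a2-KO against WT (adjusted p = 1.8e-07) and at 1.19 ± 0.28 and 1.08 ± 0.28 with the knockouts in PY (adjusted p = 0.0029 and 0.0067). The stress gene nupr1b rose in PY SLC45a2-KO by 2.24 ± 0.79 (adjusted p = 0.029, but over 0.05 without PY SLC45a2-KO replicate 1 or 5 or WT SLC45a2-KO replicate 1, 2 or 4, at most 0.079), and asns, asparagine synthetase, fell in PY TGR5-KO against WT TGR5-KO by 0.75 (SE 0.28, adjusted p = 0.049, lost in 18 of 36).

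Of 8 tested glucocorticoid genes 2 rose and 1 fell in PY SLC45a2-KO against WT SLC45a2-KO, a share near the 35.6% of all genes called there. In PY against WT 2 rose and 0 fell with TGR5-KO (19.9%), and 5 rose and 0 fell with CYP7a1-KO (23.2%). In WT against SLC45a2-KO 0 rose and 0 fell with TGR5-KO (6.49%), and 1 rose and 2 fell with CYP7a1-KO (11.6%). The liver enzyme tat rose by 2.66 ± 0.23 (edgeR adjusted p = 1.1e-13), 2.29 ± 0.23 and 2.09 ± 0.21 with SLC45a2-KO, TGR5-KO and CYP7a1-KO, and hsd11b2, which inactivates cortisol, fell from 145.8 to 56.4 CPM with SLC45a2-KO (-1.37 ± 0.14, adjusted p = 1.5e-11). With the knockouts in PY hsd11b2 was higher than in PY SLC45a2-KO, by 0.98 ± 0.13 for TGR5-KO (adjusted p = 5.2e-07) and 1.13 ± 0.13 for CYP7a1-KO (adjusted p = 1.9e-08). In PY tat stood at 40.0, 27.5 and 48.8 CPM with SLC45a2-KO, TGR5-KO and CYP7a1-KO, which was not the order of igfbp1a. Of the 8 glucocorticoid genes 1 rose and 1 fell with each knockout in PY. Against PY SLC45a2-KO most called hypoxia and amino acid genes fell with each knockout, as igfbp1a did, and 1 gene of each list rose. Whether hypoxia, amino acid shortage or glucocorticoids had a part in the igfbp1a levels was not tested.

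Between the 2 knockouts in PY, where no member differed beyond the threshold, 21 of 15521 genes passed and 2 pathway genes did, pdk4 (-0.87 ± 0.18 for CYP7a1-KO minus TGR5-KO, edgeR adjusted p = 0.032) and tat (0.83 ± 0.18, adjusted p = 0.041). The calls were lost in 9 and 10 of 36 alternatives, among them the fit to the 2 groups alone (adjusted p = 0.29 and 0.24). Between the 2 knockouts in WT 38 pathway genes were higher in CYP7a1-KO and 17 lower, among them foxo1a at 2.08 ± 0.17 (adjusted p = 1.2e-12) and fbxo32 at 2.63 ± 0.59 (adjusted p = 0.0026), in the direction of igfbp1b (2.24 ± 0.53). The phosphatase genes g6pca.1 and g6pca.2 went the other way, at -1.32 ± 0.35 and -1.31 ± 0.18 (adjusted p = 0.0052 and 4.6e-07).

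Over all 27 libraries the genes most like igfbp1a, among 9675 genes with a mean of at least 5 CPM, were the complement regulator cfi (r of log2(CPM + 1) 0.978), the claudin cldn15lb (0.973), the survival factor mcl1b (0.970), itgb3a (0.970), angptl6 (0.968), zfp36l1b (0.963), cfh (0.963) and f5 (0.962). The least like it were gnb3b (-0.968), meltf (-0.964), mfap2 (-0.952) and gngt2b (-0.951). These coefficients hold the difference between groups that all such genes share. On deviations from group means, cebpb, a transcription factor of the acute phase and of amino acid shortage, was most like it (0.858), then smim8 (0.798). The level of cebpb was 24.1 ± 2.63, 37.1 ± 1.76 and 17.5 ± 3.11 CPM in WT (n = 4 each) and 155.4 ± 27.8, 70.5 ± 26.1 and 68.9 ± 13.1 CPM in PY (n = 5 each), for SLC45a2-KO, TGR5-KO and CYP7a1-KO. In WT TGR5-KO against WT SLC45a2-KO the cebpb change was 0.62 ± 0.20, which missed the threshold (edgeR adjusted p = 0.054), while igfbp1a was lower there.

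The genes most like igfbp1b over the 27 libraries were fbxo32 (0.940), crebrf (0.921), eif4ebp3l (0.919), mertka (0.910), ubald2 (0.900), irs2a (0.897), atg9b (0.883) and slc43a2a (0.881). The ubiquitin ligase fbxo32 was also most like it on deviations from group means (0.849, all groups pooled). In PY CYP7a1-KO, where igfbp1b spread most relative to its mean, fbxo32 stood at 37.1, 26.7, 4.72, 7.13 and 17.2 CPM in libraries 1 to 5. There igfbp1b stood at 39.8, 18.5, 3.65, 9.09 and 21.3 CPM. In PY SLC45a2-KO the orders differed, with fbxo32 at 36.7, 42.2, 70.9, 59.4 and 33.1 CPM and igfbp1b at 76.2, 110.1, 98.8, 63.3 and 55.5 CPM. The points of these correlations share libraries, depth and, for levels, group differences.

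**Figure D5:**
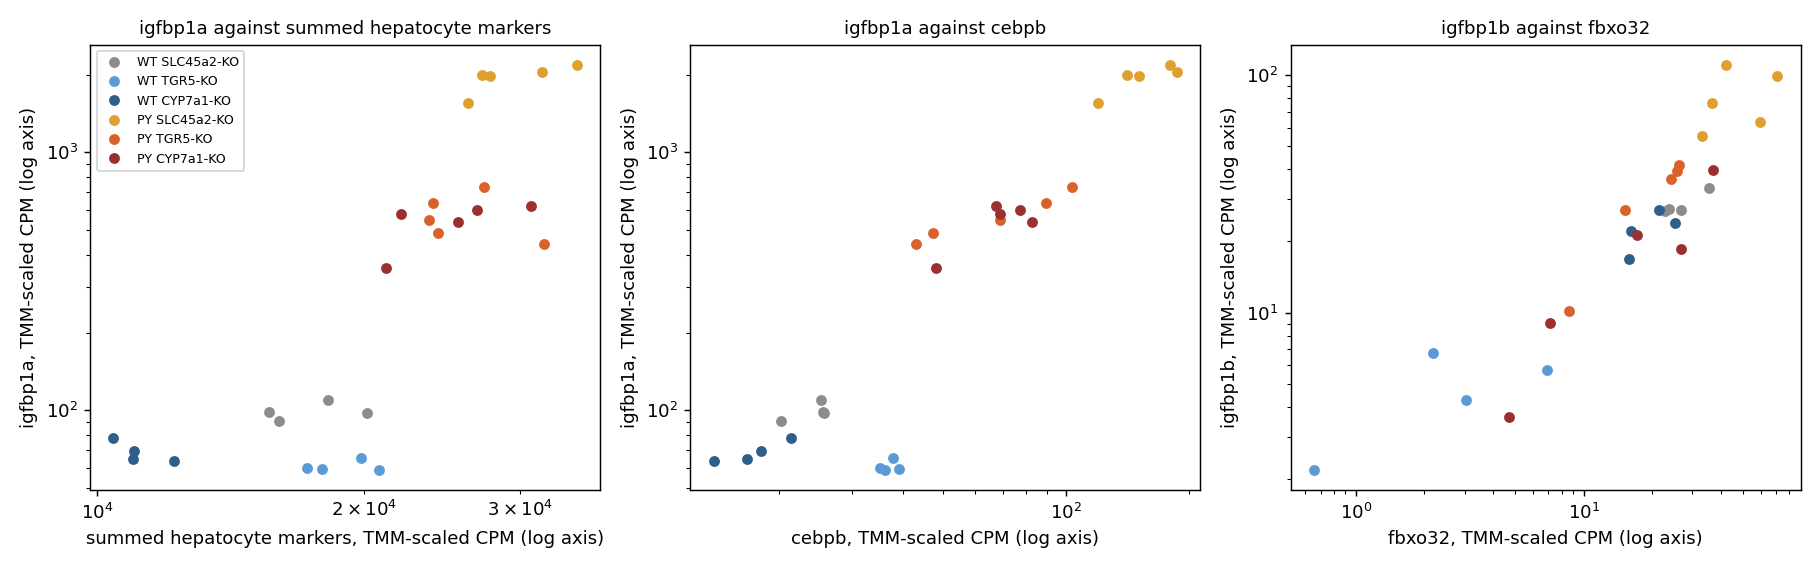
Level of igfbp1a against the summed hepatocyte markers and against cebpb, and of igfbp1b against fbxo32, 1 point per library (27), TMM-scaled CPM on log axes, coloured by group. PY SLC45a2-KO libraries stand above the other PY libraries in igfbp1a at overlapping hepatocyte marker sums (26201 to 34814 against 21195 to 31950.0 CPM). Libraries of all 6 groups line up for igfbp1b and fbxo32 (r = 0.940 of log2 levels).

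In the order of genes of the GRCz12tu assembly, igfbp3 and igfbp1a are neighbours, as are igfbp5a and igfbp2a, and igfbp2b and igfbp5b, while igfbp1b has no member beside it. In PY SLC45a2-KO against WT SLC45a2-KO the log2 changes side by side were 0.65 ± 0.20 and 4.29 ± 0.16 for igfbp3 and igfbp1a, -1.57 ± 0.64 and -2.94 ± 0.85 for igfbp5a and igfbp2a, and -1.17 ± 0.26 and -0.19 ± 0.12 for igfbp2b and igfbp5b.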

How the data were processed

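RNA of pooled whole zebrafish larvae was sequenced by 3′ tags (QuantSeq, per the labels' protocols). The authors deposited a table of raw read counts per gene entry. It also holds CPM values deposited by the authors, which equalled the counts per 1000000 of all counts within 0.000499985 and were used for that check alone. The submitters' processing notes name the builds danRer10 and GRCz11 without their roles. For the aligner, counting, strand, use of molecular identifiers, guide positions and pool sizes, the sources used here give nothing.

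The members and gene lists were chosen with earlier results of these data known. Counts were tested with edgeR 4.0.16 (R 4.3.3; quasi-likelihood, robust, TMM factors, filterByExpr, 1 mean per group over 27 libraries, Benjamini-Hochberg over 15521 genes at 0.05). Dispersion over all genes corresponded to a coefficient of variation of 0.264. Symbols on several rows (118) were treated as separate rows. Of 212 listed pathway genes 199 matched by symbol, 4 by synonym and 9 not at all. Named were all members, 11 receptors and FoxO factors (igf1ra, igf1rb, igf2r, insra, insrb, ghra, ghrb, foxo1a, foxo1b, foxo3a, foxo3b), and per comparison up to 5 called pathway genes per direction with the largest changes and a mean of at least 5 CPM, a rule that allows part of these to be named. Each such gene is named at least once, not for every comparison that selected it. Genes outside that rule, and those like igfbp1b, were chosen after their values were seen. Nothing says that libraries came from separate clutches, so p-values measure the spread between these libraries, which may be technical. Replicate pairs differed beyond counting noise (chi-square per degree of freedom 4.21 to 21.8). Alternatives were RLE factors, TMM without abundant genes, 2 other filters, DESeq2 1.42.0, no robust estimation, the compared groups alone, a replicate block and leaving out each library. Leaving out PY CYP7a1-KO libraries 1 and 2 was added after seeing the data.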

Additional observations from a re-analysis of the deposited data

Results flagged for a closer look

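In 7 of 60 sets of libraries of 1 gene and group, the gap between 1 library and its nearest neighbour made up most of the range. For independent, normally distributed values chance gives about 1 in 20, which low counts need not follow. A flag does not mean a large difference: igfbp1a counts in WT TGR5-KO were 275, 284, 288 and 271 in replicates 1 to 4. These were igf1 in WT SLC45a2-KO replicate 1 (16.8 CPM), igfbp1a in WT TGR5-KO replicate 2 (65.5 CPM), igfbp1b in WT SLC45a2-KO replicate 1 (33.6 CPM) and igfbp3 in PY SLC45a2-KO replicate 2 (47.0 CPM), all the highest of their group. The others were igfbp5a in PY SLC45a2-KO replicate 4 (6.08 CPM, highest), igfbp5a in WT TGR5-KO replicate 4 (12.2 CPM, highest) and igfbp2a in WT TGR5-KO replicate 1 (1.09 CPM, lowest).

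The knockout change in PY differed from that in WT for some members, given here as a description. Members are listed where this difference passed the edgeR threshold. Since they were chosen by their values, nothing is read from that. For TGR5-KO the difference in log2 change, PY minus WT, was -1.07 for igfbp1a and -1.07 for igfbp3. For CYP7a1-KO it was -0.92 for igf2a, -1.33 for igfbp1a, -1.80 for igfbp1b, 1.05 for igfbp2b and -1.0001 for igfbp3.

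Among pathway genes the same difference passed the edgeR interaction test. For TGR5-KO it was 2.16 for pdpk1a, 2.02 for pcsk2, 1.63 for bcl6ab, 1.41 for sst2 and 1.41 for eif4ebp3l, and -2.85 for atf3, -2.60 for egln3, -1.76 for cebpb, -1.36 for vegfab and -1.16 for ndrg1a. For CYP7a1-KO it was 2.35 for phgdh, 1.91 for sst1.1, 1.83 for hsd11b2, 1.53 for sst2 and 1.32 for bcl6ab, and -2.11 for pdk4, -2.03 for foxo4, -1.98 for ndrg1b, -1.84 for nupr1a and -1.66 for bcl2l11. The bcl6ab call for CYP7a1-KO was lost in 7 of 36 alternatives.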

How the results depend on the processing

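No log2 change past the edgeR threshold, of a member or a named pathway gene, changed sign under the alternatives run. Smaller changes could span 0, as for igfbp5a in PY TGR5-KO against PY SLC45a2-KO (-0.60 to 0.60). With the compared groups alone, genes called numbered 1355 (2079 with all groups) for PY CYP7a1-KO against PY SLC45a2-KO, 2993 (1804) for WT CYP7a1-KO and 1900 (1008) for WT TGR5-KO against WT SLC45a2-KO, and pathway genes 33 (50) for the first. For PY CYP7a1-KO against PY TGR5-KO (21 genes, 2 of them pathway genes) the counts were 70 by DESeq2, 95 without the filter, 37 without robust estimation, 3 with the compared groups alone and 12 without PY CYP7a1-KO libraries 1 and 2, chosen after seeing the data, and pathway genes numbered 0 with the compared groups alone, 1 with the replicate block and 1 without those libraries. The cause was not tested. Leaving out each library gave 2 to 45 genes and 0 to 2 pathway genes there, and 22 to 36 pathway genes (34) for WT TGR5-KO against WT SLC45a2-KO. Of 2970 values of members with a library left out 7 moved, for igfbp2a without PY SLC45a2-KO replicate 1 and igfbp5a without PY SLC45a2-KO replicate 4. Of 3753 pathway gene calls with a library left out 134 were lost. Member counts with a library left out were 2 to 5 (5) for the CYP7a1-KO interaction, 1 to 3 (3) for PY against WT with CYP7a1-KO, and for counts of 2 they were 1 to 3 for PY TGR5-KO, 1 to 3 for WT CYP7a1-KO against SLC45a2-KO and 1 to 2 for WT CYP7a1-KO against WT TGR5-KO. The WT CYP7a1-KO count was 4 with the compared groups alone, that of PY TGR5-KO 1 with the replicate block and that between the knockouts in WT 1 without the filter. The filter of 5 CPM removed igfbp2a. Same-numbered libraries of different groups correlated at -0.128 to 0.107 in their deviations (63 pairs), and for 5 of 27 libraries the best match had the same number. No pairing by number was thus seen over all genes. Whether the numbers stand for a shared clutch or preparation is not stated and was not tested. With the replicate block 7 of 139 pathway gene calls were lost, and the count for PY SLC45a2-KO against WT SLC45a2-KO was 72 pathway genes. Counts under 3 per library limit igfbp2a, igfbp5a and igf1rb.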
